A study of Mus musculus with 45 samples.

Results

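The nuclear receptor family was followed in the livers of 45 mice as 38 genes taken by name from the family, out of 39179 genes in the count tables. Names were matched to Ensembl identifiers, all 38 receptors were found, and all 38 were among the 17464 genes tested. Female C57BL/6 mice were gavaged from postnatal day 28 with sesame oil or with TCDD in that oil, every 4 days over 28 days, with 5 mice in each of 9 groups. The doses were 0.01 and 0.03 µg/kg at the low end, then 0.1 and 0.3, then 1 and 3, and at the top 10 and 30 µg/kg. The sample labels also mention ovariectomy and daily dosing, which the study's methods do not, so the ovarian state of the animals is unsettled here. The question was which receptors changed in mRNA abundance, at which dose and in which direction.

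Nuclear receptors are transcription factors whose activity is usually set by small lipophilic ligands such as steroid and thyroid hormones, retinoids, oxysterols, fatty acids, bile acids and drugs. Many of them bind DNA as partners of a retinoid X receptor, recruit corepressors without ligand and coactivators with it, and in the liver they govern lipid, glucose, bile acid and drug metabolism. TCDD (2,3,7,8-tetrachlorodibenzo-p-dioxin) acts through the aryl hydrocarbon receptor, which is not a nuclear receptor. It is a basic helix-loop-helix factor that, once bound by dioxin, pairs with ARNT on dioxin response elements.

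Between 11.8 and 56.5 M reads per mouse were counted on genes, and the levels below are these raw counts scaled to library size with TMM factors, in CPM. Cyp1a1, the cytochrome P450 that marks aryl hydrocarbon receptor activation, ranged from 1.34 to 16.6 CPM in the vehicle mice and from 6020 to 9060 CPM at 30 µg/kg. One mouse at 0.01 µg/kg had 69.7 CPM of Cyp1a1, against a median of 1.91 CPM in its group. Another library stood apart in the circadian genes and in several receptors. Mouse 1 of the 0.3 µg/kg group lay outside the range of all other 44 mice for 7 of 12 clock partner genes, including Dbp at 3.29 CPM (others 26.5 to 259 CPM) and Cry1 at 81.1 CPM (others 3.22 to 30.1 CPM), and for 7 of the 38 receptors. Of these receptors, Thrb, Nr2c1 and Nr2f6 lay only at the edge of that range. The share of all genes outside it is not given here. Results that rest on that mouse are given with and without it. The mouse was singled out by its values of these genes, so for them the refits without it are not an independent check. In bulk liver RNA, fewer cells of a type and less RNA per cell cannot be told apart.

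The receptors covered a wide range of basal expression. Per kilobase of annotated exon, the mean level in the vehicle mice was highest for Nr1i3 (CAR, the constitutive androstane receptor that senses drugs) at 165 CPM per kb. It was followed by Hnf4a, the master regulator of hepatocyte identity, at 95.9 CPM per kb, Rxra at 72.6 CPM per kb and the bile acid receptor Nr1h4 (FXR) at 71.9 CPM per kb. The ranges of Rxra and Nr1h4 over the 5 vehicle mice overlapped. The xenobiotic receptor Nr1i2 (PXR) at 47.7, the oxysterol receptor Nr1h3 (LXRα) at 42.1 and the fatty acid receptor Ppara at 37.5 CPM per kb formed the next tier. At the other end were the immediate early receptors Nr4a1, Nr4a2 and Nr4a3 at 0.113, 0.097 and 0.0151 CPM per kb, and the vitamin D receptor Vdr at 0.00623 CPM per kb. Vdr had at most 7 reads in any mouse and none in 17 mice, and Nr4a3 had at most 19 reads and none in 13 mice. For Nr1i3, 3304 of 4414 exonic bases overlap Tomm40l on the opposite strand. Counted without regard to strand, reads wholly inside shared bases are ambiguous and left uncounted. The Nr1i3 level per kb may therefore be too low, and so may those of Nr2f6 and Nr2c2. Nr2f6 shares 1622 of 2983 exonic bases with Ocel1 on the opposite strand. Nr2c2 shares 4657 of 14935 with Mrps25 and another gene.

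**Figure D1:**
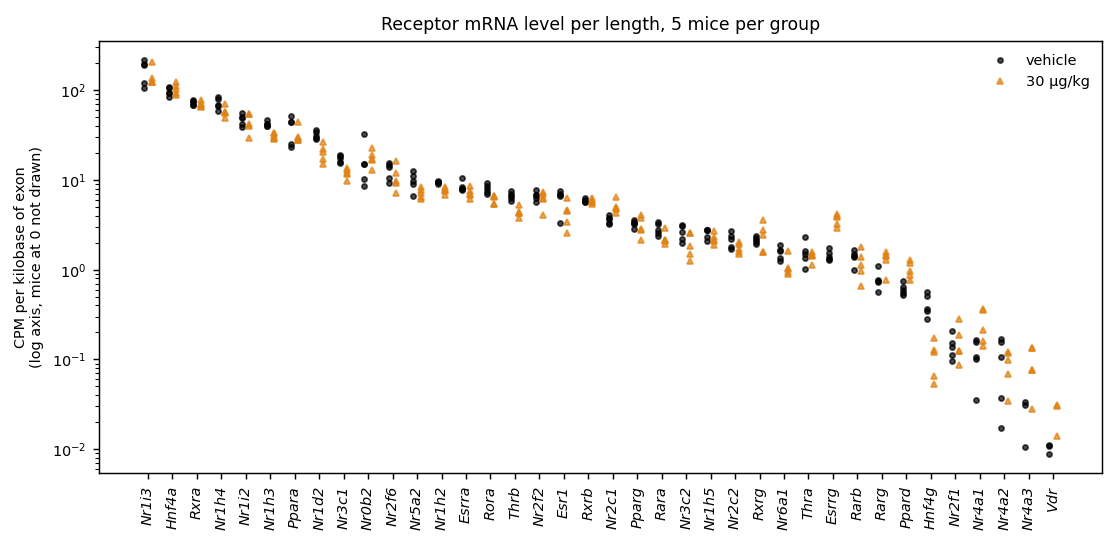
Levels of the 38 receptor mRNAs in CPM per kilobase of exon (log axis) in the 5 vehicle mice (black circles) and the 5 mice at 30 µg/kg (orange triangles), ordered by the vehicle mean, with mice at 0 not drawn. The levels run from 165 CPM per kb for Nr1i3 down to 0.00623 CPM per kb for Vdr, and among the sparse receptors the treated mice sit above the vehicle mice for Esrrg and below them for Hnf4g without overlap.

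Receptor mRNAs changed at the higher doses. From 0.01 to 1 µg/kg, 0 of 38 receptors passed an adjusted p of 0.05 in the edgeR quasi-likelihood test, in which 0, 0.0573, 0.0229, 0.464 and 1.76% of all genes passed, in rising order of these 5 doses. In the same order 3, 3, 1, 2 and 3 receptors had an unadjusted p under 0.05, and DESeq2 and limma-voom also called 0. At 3 µg/kg 4 receptors (10.5%) passed, against 7.54% of all genes. These were Esrrg and Nr2c1, which rose, and Hnf4g and Nr1h2, which fell. At 10 µg/kg 8 receptors (21.1%) passed, against 15.9% of all genes, with Rarg, Nr2c1, Esrrg and Nr4a3 higher and Nr3c1, Thrb, Rora and Hnf4g lower. Every dose was compared with the same 5 vehicle mice.

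At 30 µg/kg 14 receptors (36.8%) passed, against 29.6% of all genes. Of these 9 fell (23.7% of the receptors, against 14.1% of all genes) and 5 rose (13.2%, against 15.5% of all genes). The receptors that fell were Nr3c1, Thrb, Rara, Nr1h2, Nr1h3, Rora, Hnf4g, Nr5a2 and Nr6a1. Those that rose were Rarg, Nr2c1, Esrrg, Nr4a1 and Nr4a3. The median log2 fold change of the 38 receptors was -0.20, and that of all genes 0.02. Only Hnf4g, Esrrg, Nr4a1 and Nr4a3 also changed at least 2-fold, which is 10.5% of the receptors against 11.4% of all genes. Without normalization beyond total reads, which moved the median of all genes by 0.21 on the log2 scale, the split was 7 higher and 3 lower, with Hnf4a and Ppard added to those that rose and Rara, Nr1h2, Nr1h3, Rora, Nr5a2 and Nr6a1 no longer passing. Without mouse 1 of the 0.3 µg/kg group 16 receptors passed, 6 higher and 10 lower, the added ones being Ppard (adjusted p = 0.0115) and Nr1d2 (adjusted p = 0.0274). The shares of all genes that passed in these refits are not given here, so the refit counts cannot be set against all genes.

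**Figure D2:**
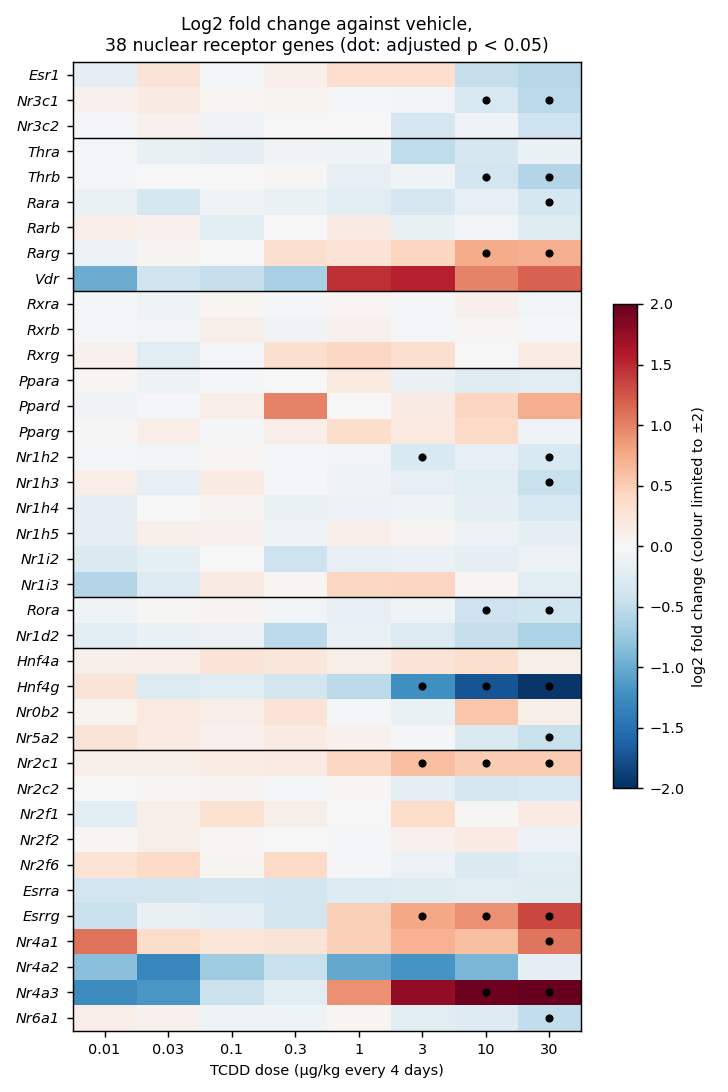
Log2 fold changes of the 38 receptors against the vehicle at each of the 8 doses, grouped by class, with red for higher, blue for lower, colour limited to ±2, and a dot where the adjusted p was under 0.05. Dots are seen only at 3, 10 and 30 µg/kg, with 4, 8 and 14 of them. The strong colours of Vdr and Nr4a2 without dots belong to genes with few reads.

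No receptor passed the test between 30 and 10 µg/kg, for which 0.613% of all genes passed. Of the 38 receptors, 4 had an unadjusted p under 0.05 in that contrast, and DESeq2 and limma-voom also called 0. In the F test over all 8 doses 13 receptors (34.2%) passed, against 28.8% of all genes. This set held Ppard and Nr1i3 but not Rara, Nr4a1 or Nr6a1. In 10 receptors (26.3%, against 19.9% of all genes) the 5 mice at 30 µg/kg and the 5 vehicle mice did not overlap in CPM. The treated mice were higher in 3 of them (7.89%, against 10.3% of all genes), namely Nr2c1, Esrrg and Ppard, and lower in 7 (18.4%, against 9.57%), namely Nr3c1, Thrb, Nr1h2, Nr1h3, Rora, Nr1d2 and Hnf4g.

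**Figure D3:**
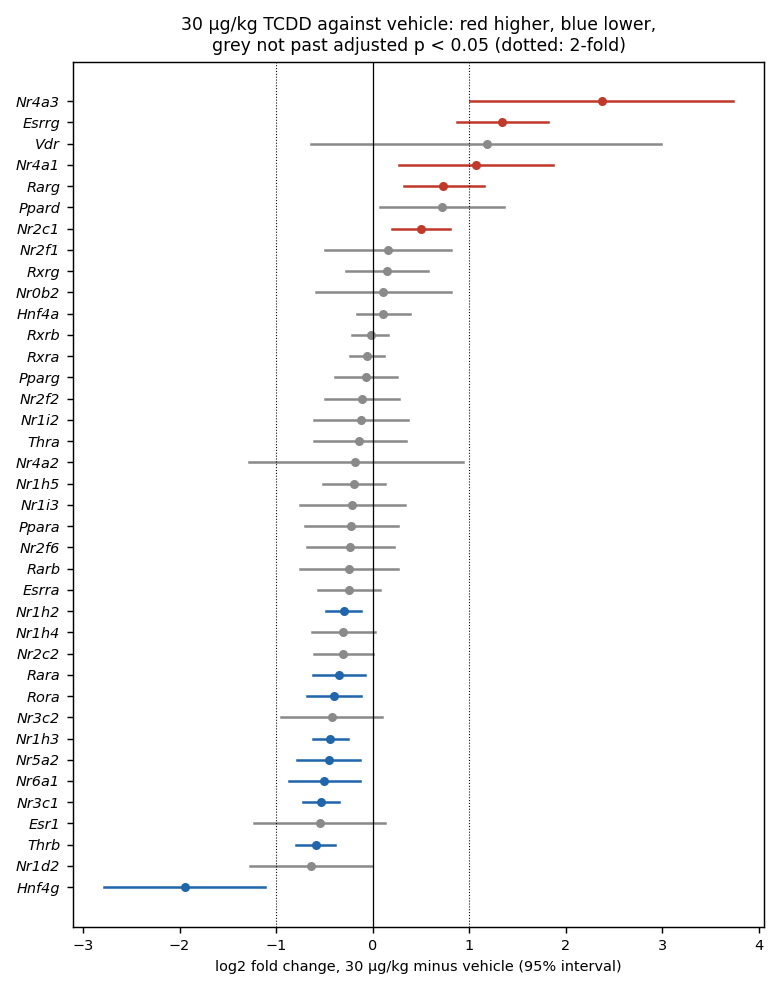
Log2 fold change at 30 µg/kg against the vehicle for each of the 38 receptors, with its 95% confidence interval (5 mice per group), sorted by size. Red points rose, blue points fell and grey points did not pass an adjusted p of 0.05, and dotted lines mark 2-fold. Most of the receptors that fell moved by less than 2-fold with narrow intervals, whereas Nr4a3 at 2.37 and Vdr at 1.18 carry the widest ones.

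Among the steroid receptors, Nr3c1, the glucocorticoid receptor (GRCm38 chr18:39410545-39519421, minus strand), fell. It stood at 123, 147, 142, 136 and 119 CPM in the vehicle mice and at 99.4, 91.9, 90.6, 104 and 74.4 CPM at 30 µg/kg. Every mouse at 30 µg/kg lay below every vehicle mouse. The log2 fold change was -0.54 ± 0.09 (SE, n = 5 mice per group, adjusted p = 1.81e-05), a loss of 31.1%. At 10 µg/kg the mice ranged from 103 to 116 CPM, again below the vehicle range, with a log2 fold change of -0.32 ± 0.09 (adjusted p = 0.0139). That call was lost without vehicle mouse 2 (adjusted p = 0.0542) and without normalization (log2 fold change -0.19, adjusted p = 0.161). At doses up to 3 µg/kg the group means lay between 129 and 149 CPM, around the vehicle mean of 134 CPM.

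Esr1, the estrogen receptor α, had a similar fold change with a larger spread. Vehicle mouse 1 had 45.2 CPM and the other 4 had 91.6 to 104 CPM, and the mice at 30 µg/kg ranged from 34.7 to 86.2 CPM. The log2 fold change of -0.55 ± 0.34 did not pass (adjusted p = 0.232), and its 95% interval ran from -1.23 to 0.13. For the mineralocorticoid receptor Nr3c2 the log2 fold change was -0.42 ± 0.26 (adjusted p = 0.229).

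Of the thyroid hormone receptors, Thrb fell and Thra did not pass. Thrb, the main thyroid hormone receptor of hepatocytes (chr14:17660261-18038090, plus strand), stood at 43.7, 55.8, 51.3, 49.3 and 46.5 CPM in the vehicle mice and at 28, 32.7, 32, 39.3 and 31.4 CPM at 30 µg/kg. The groups did not overlap, and the log2 fold change was -0.59 ± 0.10 (adjusted p = 9.21e-06). At 10 µg/kg Thrb had already fallen to a mean of 38.1 ± 2.20 CPM (SD, n = 5), a log2 fold change of -0.37 ± 0.10 (adjusted p = 0.00644), with every mouse below the vehicle range. Without normalization the value at 10 µg/kg was -0.25 (adjusted p = 0.0538). Thra had a mean of 7.16 CPM in the vehicle mice and 6.51 CPM at 30 µg/kg (log2 fold change -0.14 ± 0.23, adjusted p = 0.709). Exons of Thra overlap 263 bases of Nr1d1 on the opposite strand. The difference between Thrb and Thra was not tested.

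Of the retinoic acid receptors, which pair with RXRs to read the vitamin A derivative retinoic acid, Rarg rose and Rara fell. Rarg (chr15:102234938-102257517, minus strand) had 3.25, 3.12, 3.20, 2.41 and 4.65 CPM in the vehicle mice and 5.41, 6.01, 6.79, 3.29 and 6.25 CPM at 30 µg/kg, where mouse 4 remained inside the vehicle range and the others lay above it. It rose by a log2 fold change of 0.73 ± 0.21 (adjusted p = 0.00565) at 30 µg/kg and of 0.74 ± 0.20 (adjusted p = 0.00896) at 10 µg/kg. Rara had 10.3, 14.9, 11.2, 12 and 14 CPM in the vehicle mice and 9.38, 8.36, 9.19, 9.42 and 12.8 CPM at 30 µg/kg, where mouse 5 lay within the vehicle range. It fell by 0.35 on the log2 scale (SE 0.14, adjusted p = 0.0457), and this call was lost without any one of vehicle mice 2, 4 and 5 or mice 1 to 4 of the 30 µg/kg group (adjusted p from 0.0605 to 0.163) and in 6 of 8 other processing settings (adjusted p from 0.0501 to 0.446). Rarb, the third member, had a log2 fold change of -0.25 ± 0.25 (adjusted p = 0.493), and Top2b and another gene overlap 2020 of its exonic bases on the opposite strand.

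Vdr, the vitamin D receptor, was too sparse to follow. It had 0 or 1 read in each vehicle mouse and 0 to 5 reads at 30 µg/kg, with levels up to 0.0636 and 0.177 CPM. Its log2 fold change of 1.18 ± 0.90 did not pass (adjusted p = 0.349), and a difference was not detectable at this depth.

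The retinoid X receptors, the shared partners of many of the other receptors, showed no change that passed the test at any dose. Rxra ranged from 370 to 420 CPM in the vehicle mice and from 354 to 422 CPM at 30 µg/kg. The difference was -0.06 on the log2 scale, with a 95% interval from -0.24 to 0.12, so that a change of 2-fold lies outside the interval. For Rxrb the value was -0.02 (-0.21 to 0.16) and for Rxrg, the least abundant, 0.15 (-0.28 to 0.57).

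The liver X receptors, oxysterol sensors that drive cholesterol efflux and lipogenesis, both fell. Nr1h3 (LXRα) had 117, 105, 101, 106 and 100 CPM in the vehicle mice and 73.9, 77.2, 84.1, 83.1 and 72.5 CPM at 30 µg/kg. Nr1h2 (LXRβ) had 31.5, 30.5, 31.5, 31.5 and 32.8 CPM in the vehicle mice and 25.2, 27.8, 22.6, 26.6 and 26.1 CPM at 30 µg/kg. For either gene, all treated mice lay below all vehicle mice. The log2 fold changes were -0.44 ± 0.09 (adjusted p = 0.000178) for Nr1h3 and -0.30 ± 0.09 (adjusted p = 0.00858) for Nr1h2. At 10 µg/kg the mice had 84.9 to 93.6 CPM of Nr1h3, also below every vehicle mouse, with a log2 fold change of -0.23 ± 0.09 that did not pass (adjusted p = 0.073). It passed without mouse 1 of the 0.3 µg/kg group (-0.23, adjusted p = 0.0394), in the fit of the 2 groups alone (-0.24, adjusted p = 0.0372) and in DESeq2 (-0.23, adjusted p = 0.0485). Nr1h2 had also fallen at 3 µg/kg, to 21.4 to 28.7 CPM (log2 fold change -0.31 ± 0.09, adjusted p = 0.0218), whereas at 10 µg/kg its mice ranged from 24.3 to 30.8 CPM and the change did not pass (log2 fold change -0.17 ± 0.09, adjusted p = 0.203). The call of Nr1h2 at 3 µg/kg was lost without vehicle mouse 5 or without mouse 3 or 5 of the 3 µg/kg group (adjusted p from 0.0558 to 0.108), in the fit of the 2 groups alone (adjusted p = 0.0556) and without normalization beyond total reads (adjusted p = 0.191). Without normalization beyond total reads the values at 30 µg/kg were -0.22 for Nr1h3 (adjusted p = 0.0583) and -0.08 for Nr1h2 (adjusted p = 0.55).

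The peroxisome proliferator-activated receptors sense fatty acids. Ppara, which drives hepatic fatty acid oxidation, varied widely among vehicle mice, from 90.1 to 197 CPM, and ranged from 107 to 170 CPM at 30 µg/kg (log2 fold change -0.22 ± 0.24, adjusted p = 0.518). Pparg had a log2 fold change of -0.07 ± 0.16 (adjusted p = 0.793) at 30 µg/kg. Ppard had 3.96, 4.45, 4.87, 5.63 and 4.14 CPM in the vehicle mice and 5.72, 6.52, 8.88, 7.35 and 9.54 CPM at 30 µg/kg. Every mouse at 30 µg/kg was above every vehicle mouse, yet the log2 fold change of 0.72 ± 0.32 did not pass (adjusted p = 0.0831). Mouse 1 of the 0.3 µg/kg group had 25.6 CPM of Ppard against 3.87 to 7.15 CPM in the rest of its group, and all groups share 1 estimate of the spread in this fit. Without that mouse the log2 fold change at 30 µg/kg was 0.70 (adjusted p = 0.0115), and with only the vehicle and 30 µg/kg mice in the fit it was 0.71 (adjusted p = 0.00355). Ppard passed the F test over the doses (adjusted p = 0.0329), a call lost without mouse 3 or mouse 5 of the 30 µg/kg group (adjusted p of 0.0602 and 0.0611). The call was also lost in the limma-voom F test (adjusted p = 0.237).

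The bile acid and xenobiotic sensors were abundant and did not pass the test at any single dose. Nr1h4 (FXR), the bile acid receptor, ranged from 136 to 196 CPM in the vehicle mice and from 113 to 161 CPM at 30 µg/kg (log2 fold change -0.31 ± 0.16, adjusted p = 0.15). Its lanosterol-binding relative Nr1h5 had a log2 fold change of -0.19 ± 0.16 (adjusted p = 0.389). Nr1i2 (PXR) had a log2 fold change of -0.12 ± 0.24 (adjusted p = 0.754). Nr1i3 (CAR) ranged from 465 to 949 CPM in the vehicle mice and from 539 to 912 CPM at 30 µg/kg. Its group means ran from 484 CPM at 0.01 µg/kg to 982 CPM at 3 µg/kg. Nr1i3 passed the F test over the doses at an adjusted p of 0.0448, but the call was lost in 24 of the 45 fits that left out 1 mouse (adjusted p from 0.0503 to 0.0992), among them the fit without mouse 1 of the 0.3 µg/kg group (adjusted p = 0.0504).

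Rora and Nr1d2 bind the same response elements in clock genes, Rora as an activator and Nr1d2 (REV-ERBβ) as a repressor. Rora had 96.3, 121, 111, 104 and 92.1 CPM in the vehicle mice and 70, 87.0, 83.6, 86.7 and 69.9 CPM at 30 µg/kg, without overlap. The log2 fold change was -0.40 ± 0.14 at 30 µg/kg (adjusted p = 0.0242) and -0.42 ± 0.14 at 10 µg/kg (adjusted p = 0.0301), where 67.6 to 91.5 CPM were found. The call at 30 µg/kg was lost without vehicle mouse 2 or without mouse 1 or 5 of the 30 µg/kg group (adjusted p from 0.0594 to 0.0811), and that at 10 µg/kg without vehicle mouse 2 or 3 or mouse 1 or 4 of the 10 µg/kg group (adjusted p from 0.0566 to 0.0941). Both calls were lost without normalization beyond total reads (log2 fold change -0.18 and adjusted p = 0.287 at 30 µg/kg, -0.29 and adjusted p = 0.115 at 10 µg/kg) and under adjustment over all doses together (adjusted p = 0.0801 and 0.0614).

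Nr1d2 had 157, 194, 185, 167 and 155 CPM in the vehicle mice and 121, 144, 92.9, 112 and 81.0 CPM at 30 µg/kg. The groups did not overlap, and the log2 fold change was -0.64 ± 0.31 (adjusted p = 0.12). Here too mouse 1 of the 0.3 µg/kg group stood apart, at 16.8 CPM against 81.0 to 230 CPM in all other mice. Without that mouse the log2 fold change was -0.65 (adjusted p = 0.0274), and in the fit of the 2 groups alone it was -0.65 (adjusted p = 0.00219). Of the 12 clock partner genes, 1 fell at 30 µg/kg and 11 did not pass, where 14.1% of all genes fell. The gene that fell was Cry2, a clock repressor (log2 fold change -0.42 ± 0.16, adjusted p = 0.0374). Mouse 1 of the 0.3 µg/kg group was singled out by values that include its Dbp. Without it 3 fell and 9 did not pass, and the share of all genes in that refit is not given here. The added ones were Dbp, a circadian output activator, with 145 to 184 CPM in the vehicle mice and 30.4 to 94.7 CPM at 30 µg/kg, and its relative Tef, with 286 to 371 CPM and 180 to 249 CPM. Dbp had a log2 fold change of -1.43 in the fit of all mice (adjusted p = 0.0661) and -1.44 without that mouse (adjusted p = 0.0319), and Tef had one of -0.70 (adjusted p = 0.0711), or -0.72 without that mouse (adjusted p = 0.0474). In 4 of the 12 genes every mouse at 30 µg/kg lay below every vehicle mouse, against 9.57% of all genes. Beside Dbp and Tef these were the clock repressors Per3 (log2 fold change -0.65, adjusted p = 0.352) and Ciart (log2 fold change -0.80, adjusted p = 0.417), which did not pass without that mouse either (adjusted p = 0.29 and 0.387).

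Of the hepatocyte nuclear factor 4 genes, Hnf4g fell and Hnf4a did not pass. Hnf4a ranged from 401 to 518 CPM in the vehicle mice and from 431 to 598 CPM at 30 µg/kg (log2 fold change 0.11, 95% interval from -0.16 to 0.39, adjusted p = 0.572), and without normalization the log2 fold change was 0.32 (adjusted p = 0.0442). Hnf4g, a paralog better known from intestine, pancreas and kidney (chr3:3508030-3658052, plus strand), had 0.92, 1.34, 0.74, 1.49 and 0.96 CPM in the vehicle mice and 0.451, 0.172, 0.141, 0.334 and 0.321 CPM at 30 µg/kg. The groups did not overlap. It fell at each of the 3 highest doses, with log2 fold changes of -1.23 ± 0.37 at 3 µg/kg (adjusted p = 0.0331), -1.72 ± 0.39 at 10 µg/kg (adjusted p = 0.00157) and -1.94 ± 0.41 at 30 µg/kg (adjusted p = 0.000319), while the difference between 30 and 10 µg/kg did not pass (-0.22 ± 0.46, adjusted p = 0.975). At 30 µg/kg the loss was 74%. These values rest on 12 to 24 reads per vehicle mouse and 3 to 10 reads per mouse at 30 µg/kg. The call at 3 µg/kg was lost without vehicle mouse 2 or 4 or mouse 3, 4 or 5 of the 3 µg/kg group (adjusted p from 0.0558 to 0.0968), and without normalization it was at the threshold (log2 fold change -1.13, adjusted p = 0.05).

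Nr5a2 (LRH-1), an activator of bile acid synthesis genes, fell from 57.5, 65.5, 52.6, 74 and 38.7 CPM in the vehicle mice to 45.3, 41.8, 37.8, 49.6 and 35.9 CPM at 30 µg/kg. Vehicle mouse 5 lay within the treated range, so the groups overlapped. The log2 fold change was -0.45 ± 0.16 (adjusted p = 0.0302), a call lost without vehicle mouse 2 or 4 or mouse 2, 3 or 5 of the 30 µg/kg group (adjusted p from 0.0532 to 0.128), and under adjustment over all doses together (adjusted p = 0.0966). The call was also lost without normalization beyond total reads (log2 fold change -0.24, adjusted p = 0.28). Nr0b2 (SHP), the repressor induced by FXR that opposes Nr5a2, ranged from 9.79 to 36.6 CPM in the vehicle mice and had a log2 fold change of 0.11 ± 0.35 (adjusted p = 0.847).

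Of the 11 orphan receptors 4 rose and 1 fell at 30 µg/kg, where 15.5% of all genes rose and 14.1% fell. Of the 4 that rose, Nr4a1 and Nr4a3 had at most 22 and 14 reads in any mouse of the vehicle and 30 µg/kg groups. Esrrg, the estrogen-related receptor γ, which activates genes of mitochondrial metabolism (chr1:187608791-188214885, plus strand), had the smallest adjusted p of the receptors that rose. It had 8.07, 7.88, 8.51, 10.7 and 9.45 CPM in the vehicle mice, 15.9, 11.7, 18.8, 17.5 and 13.0 CPM at 3 µg/kg, 15.8, 17.9, 16.9, 12.7 and 20.4 CPM at 10 µg/kg, and 20.2, 18.1, 24.2, 25.7 and 24.9 CPM at 30 µg/kg. At each of these 3 doses every mouse was above every vehicle mouse. The log2 fold changes were 0.78 ± 0.23 (adjusted p = 0.0313), 0.91 ± 0.23 (adjusted p = 0.00517) and 1.34 ± 0.23 (adjusted p = 1.96e-05), the last a 2.53-fold rise. The difference between 30 and 10 µg/kg was 0.43 ± 0.23 (adjusted p = 0.696). At 1 µg/kg the mice were spread from 7.32 to 19.6 CPM, and at 0.01 to 0.3 µg/kg the means of 6.53 to 7.96 CPM were below the vehicle mean of 8.92 CPM without passing the test. The call at 3 µg/kg was lost without vehicle mouse 1, 2, 3 or 5 or mouse 1, 3 or 4 of the 3 µg/kg group (adjusted p from 0.0529 to 0.0845). Its relative Esrra had a log2 fold change of -0.25 ± 0.16 (adjusted p = 0.259).

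Nr2c1 (TR2), an orphan receptor that pairs with Nr2c2 (TR4) and lies at chr10:94148023-94197211 on the plus strand, had 15.4, 18.8, 14.7, 17.3 and 17.0 CPM in the vehicle mice and 19.9, 29.5, 22, 23.3 and 22.7 CPM at 30 µg/kg. The groups did not overlap here, nor at 3 and 10 µg/kg. The log2 fold change was 0.60 ± 0.15 at 3 µg/kg (adjusted p = 0.00797), 0.51 ± 0.15 at 10 µg/kg (adjusted p = 0.0151) and 0.50 ± 0.15 at 30 µg/kg (adjusted p = 0.00965). The means at these doses, 25.2, 23.6 and 23.5 CPM, did not rise with dose. At 1 µg/kg the mice already ranged from 19.8 to 23.6 CPM, above every vehicle mouse, and the change passed in a fit of those 2 groups alone (log2 fold change 0.42, adjusted p = 0.0288) but not in the fit of all groups. The calls were lost at 3 µg/kg without mouse 5 (adjusted p = 0.0532) and at 10 µg/kg without mouse 1 (adjusted p = 0.13) of the dosed group. Nr2c2 had a log2 fold change of -0.31 ± 0.15 (adjusted p = 0.13).

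The NR4A receptors are immediate early genes that respond to stress and feeding signals without a known ligand, and all 3 were scarce. Nr4a3 (NOR1, chr4:48045153-48086447, plus strand) had 0, 0.0636, 0.185, 0 and 0.202 CPM in the vehicle mice, from 0 to 4 reads, and 0.451, 0.801, 0.46, 0.167 and 0.801 CPM at 30 µg/kg, from 3 to 14 reads. Mouse 4 at 30 µg/kg lay within the vehicle range. The log2 fold change was 2.37 ± 0.67 (adjusted p = 0.00636) at 30 µg/kg and 1.96 ± 0.68 (adjusted p = 0.0421) at 10 µg/kg, where mouse 2 had no read. The call at 10 µg/kg was lost without vehicle mouse 1, 2 or 4 or mouse 1, 3, 4 or 5 of the dosed group (adjusted p from 0.0534 to 0.112), and in limma-voom, the fit of the 2 groups alone, the 1-read filter and the adjustment over all doses together (adjusted p from 0.0565 to 0.0965).

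Nr4a1 (NUR77) had 0.354, 0.572, 0.37, 0.124 and 0.556 CPM in the vehicle mice and 0.496, 1.26, 0.743, 0.557 and 1.28 CPM at 30 µg/kg, with mice 1 and 4 of the dosed group within the vehicle range. It rose by a log2 fold change of 1.07 ± 0.40 (adjusted p = 0.0366), a call lost without vehicle mouse 1, 3 or 4 or mouse 2 or 5 of the 30 µg/kg group (adjusted p from 0.0641 to 0.117). The call was also lost in limma-voom (adjusted p = 0.0518), with genes of at least 1 read in any sample kept (adjusted p = 0.0525), in the fit of the 2 groups alone (adjusted p = 0.0554) and under adjustment over all doses together (adjusted p = 0.112). At the lowest dose, 0.01 µg/kg, Nr4a1 had 0.811, 0.299, 1.55, 0.351 and 1.09 CPM, a mean of 0.819 CPM against 0.867 CPM at 30 µg/kg. There the log2 fold change was 1.08 ± 0.39, with an unadjusted p of 0.00792 in edgeR (0.00989 at 30 µg/kg) and an adjusted p of 0.353. Nr4a2 (NURR1) ranged from 0.0708 to 0.678 CPM in the vehicle mice and from 0.141 to 0.496 CPM at 30 µg/kg (log2 fold change -0.18 ± 0.55, adjusted p = 0.847).

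Nr6a1 (GCNF), an orphan receptor that represses Oct4 in early embryos, had 13.7, 18, 14.6, 17.7 and 20.6 CPM in the vehicle mice and 10.9, 9.67, 11.3, 17.7 and 10.2 CPM at 30 µg/kg. Mouse 4 of the dosed group lay inside the vehicle range and the other 4 below it. It fell by 0.50 on the log2 scale (SE 0.19, adjusted p = 0.0363), a call lost without vehicle mouse 2, 4 or 5 or mouse 1, 2, 3 or 5 of the 30 µg/kg group (adjusted p from 0.0646 to 0.107), and under adjustment over all doses together (adjusted p = 0.112). The call was also lost without normalization beyond total reads (log2 fold change -0.30, adjusted p = 0.211). The COUP transcription factors Nr2f1, Nr2f2 and Nr2f6 had log2 fold changes of 0.16, -0.11 and -0.23 at 30 µg/kg and did not pass.

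**Figure D4:**
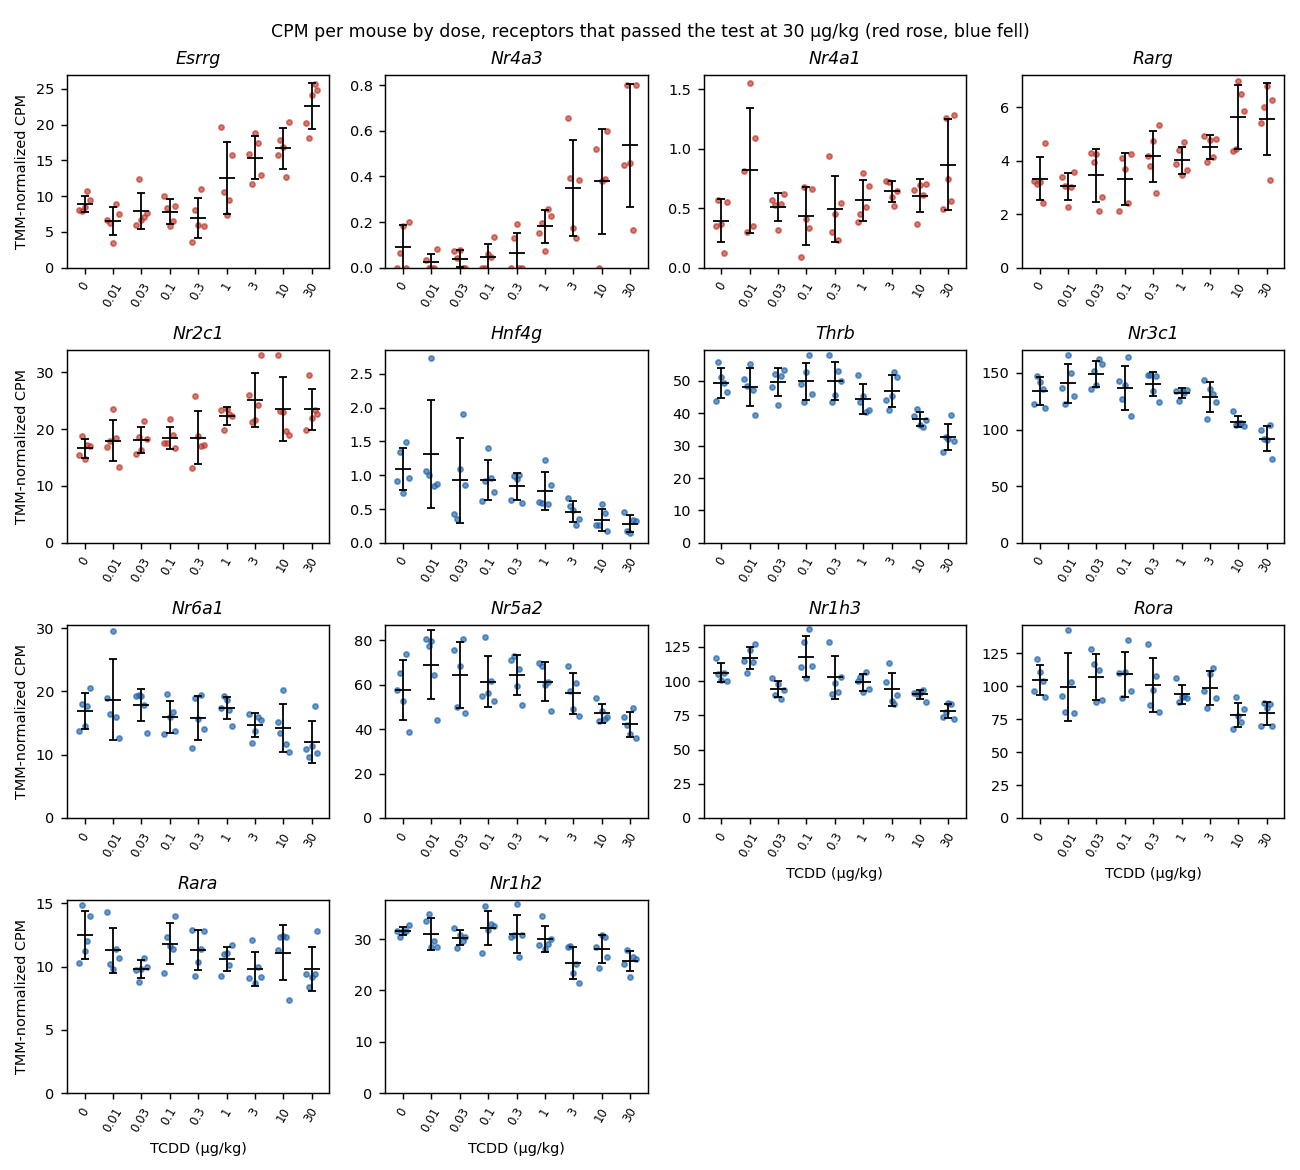
CPM (linear axis from 0) of each mouse by TCDD dose in µg/kg for the 14 receptors that passed at 30 µg/kg, with red for those that rose, blue for those that fell, and black bars for the mean ± SD of 5 mice. Esrrg and Hnf4g leave the vehicle range at 3 µg/kg, Nr3c1 and Thrb at 10 µg/kg, whereas the points of Rara, Nr6a1 and Nr4a1 overlap the vehicle at every dose.

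The 250 bases upstream of RefSeq start sites (GRCm38.p6) were searched on both strands for GCGTG, the core of the dioxin response element, read as CACGC on the other strand. Such windows were found for 35 of the 38 receptors, the others being Nr3c1, Thra and Hnf4g. The core occurred upstream of at least 1 start in 22 of the 35 (62.9%), against 46.5% of the tested genes with a window and 30.9% of all genes with a window. It was present in 5 of 5 receptors that rose at 30 µg/kg, in 4 of 7 that fell and in 13 of 23 that did not pass. Genes with several starts had several windows. Counted by window, 6 of the 9 windows of the receptors that rose and 4 of the 14 windows of those that fell held the core, as did 14 of the 31 windows of those that did not pass, against 41.2% of the windows of tested genes and 28.2% of all windows. A letter match is a description and not a bound site.

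One window with the core is shown for each receptor that rose, so that the position and number of the matches can be seen. Each is written 5′ to 3′ on the strand of the gene, ending at the base before the RefSeq start, with the core in capitals in either orientation. They are chr1:187651991-187652240 on the plus strand for Esrrg, chr15:102246501-102246750 on the minus strand for Rarg, chr10:94147681-94147930 on the plus strand for Nr2c1, chr15:101266596-101266845 on the plus strand for Nr4a1 and chr4:48045055-48045304 on the plus strand for Nr4a3.
Esrrg: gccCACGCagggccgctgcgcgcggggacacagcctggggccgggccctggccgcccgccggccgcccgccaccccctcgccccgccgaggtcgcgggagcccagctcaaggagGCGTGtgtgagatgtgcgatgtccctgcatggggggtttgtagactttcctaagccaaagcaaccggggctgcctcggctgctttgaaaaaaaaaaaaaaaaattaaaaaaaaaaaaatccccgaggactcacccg
Rarg: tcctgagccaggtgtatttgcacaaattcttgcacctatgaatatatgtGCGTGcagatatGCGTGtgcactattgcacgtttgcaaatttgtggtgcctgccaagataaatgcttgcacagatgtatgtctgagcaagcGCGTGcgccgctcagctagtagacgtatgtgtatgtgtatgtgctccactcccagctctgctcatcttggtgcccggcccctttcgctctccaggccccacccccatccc
Nr2c1: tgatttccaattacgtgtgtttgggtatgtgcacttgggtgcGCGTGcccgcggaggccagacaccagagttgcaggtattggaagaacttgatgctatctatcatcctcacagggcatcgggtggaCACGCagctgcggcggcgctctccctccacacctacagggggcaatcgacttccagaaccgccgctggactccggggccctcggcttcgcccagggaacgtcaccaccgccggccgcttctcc
Nr4a1: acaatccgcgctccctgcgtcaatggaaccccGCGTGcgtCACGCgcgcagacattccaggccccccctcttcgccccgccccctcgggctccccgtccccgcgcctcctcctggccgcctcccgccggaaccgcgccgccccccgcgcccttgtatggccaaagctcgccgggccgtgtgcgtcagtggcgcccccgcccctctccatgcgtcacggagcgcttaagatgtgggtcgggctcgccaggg
Nr4a3: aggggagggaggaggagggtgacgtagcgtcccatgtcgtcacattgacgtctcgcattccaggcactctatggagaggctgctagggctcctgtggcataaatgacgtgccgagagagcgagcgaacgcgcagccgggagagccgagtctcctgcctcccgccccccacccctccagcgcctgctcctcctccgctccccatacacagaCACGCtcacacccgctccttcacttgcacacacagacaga
The Rarg window holds 3 cores, those of Esrrg, Nr2c1 and Nr4a1 hold 2 each, and that of Nr4a3 holds 1, which lies 40 bases before the start. The longer form TNGCGTG was in none of the windows shown. Among the receptors it occurred in 1 window, that of Rara, and it was present in 4.1% of all windows. The Esrrg start shown is 1 of 4 RefSeq starts of that gene, of which 2 hold the core. The other Rarg window, at chr15:102257523-102257772, holds no core. Which start was used in these livers was not tested.

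Coregulators are the proteins that receptors recruit to activate or silence genes. At 30 µg/kg 15.5% of all genes rose and 14.1% fell. Of 10 coactivators 2 fell at that dose and 8 did not pass (median log2 fold change -0.09). Those that fell were Ppargc1a and Ppargc1b (PGC-1α and PGC-1β), partners of the ERR, PPAR and HNF4 receptors, with log2 fold changes of -0.77 ± 0.24 (adjusted p = 0.0117) and -1.09 ± 0.32 (adjusted p = 0.00829). Ppargc1b went from 6.62 ± 0.573 to 3.12 ± 1.02 CPM (SD, n = 5). Of 9 corepressors 1 rose and 3 fell. Nrip1 (RIP140) rose by 0.52 ± 0.18 (adjusted p = 0.0239), and Tbl1x, Gps2 and Hdac3, subunits of histone deacetylase corepressor complexes, fell by 0.63, 0.32 and 0.31 on the log2 scale.

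Textbook target genes of the receptors are given as counts at 30 µg/kg, where 15.5% of all genes rose and 14.1% fell. Of 13 Ppara targets 6 fell, 1 rose and 6 did not pass (median -0.41). Cyp4a14, a fatty acid ω-hydroxylase, fell from 976 ± 103 to 52 ± 24 CPM (log2 fold change -4.23 ± 0.49, adjusted p = 4.95e-09), and the peroxisomal thiolase Acaa1b fell by 1.64 on the log2 scale and the pantetheinase Vnn1 by 1.05. Fgf21, a fasting hormone, rose from 0.383 ± 0.22 to 17.9 ± 11.7 CPM (log2 fold change 5.48 ± 0.58, adjusted p = 5.8e-10). Of 8 Nr1i3 and Nr1i2 targets 2 rose, 3 fell and 3 did not pass, with the glutathione transferase Gstm3 at 1.67 ± 0.27, the cytochrome P450 Cyp2c55 at 1.54 ± 0.37, the drug transporter Abcb1a at -1.40 ± 0.33 and the carboxylesterase Ces2a at -1.22 ± 0.14. Those that did not pass were the cytochromes P450 Cyp2b10, Cyp2b13 and Cyp3a11, at 0.39, -0.52 and -0.10. Of 6 tested Nr1h4 and Nr0b2 targets 1 rose and 1 fell, the phospholipid exporter Abcb4 by 0.44 and the bile acid importer Slc10a1 (NTCP) by -0.65 on the log2 scale.

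Of 9 liver X receptor targets 5 fell and 1 rose (median -0.53). The lipogenic regulator Srebf1 fell from 309 ± 63.5 to 129 ± 27.1 CPM (log2 fold change -1.26 ± 0.22, adjusted p = 2.21e-05), and Pltp and Scd1 fell by 1.07 and 1.01 on the log2 scale. The cholesterol exporter Abcg1 went the other way, from 3.84 ± 0.875 to 13.3 ± 2.02 CPM (1.80 ± 0.24, adjusted p = 1.73e-07), and had passed from 1 µg/kg. Of 5 tested retinoic acid receptor targets 1 rose, the transglutaminase Tgm2 at 0.83 ± 0.20, and the retinoic acid hydroxylases Cyp26a1 and Cyp26b1 were at -0.30 and 0.73 and did not pass. Of 5 thyroid hormone receptor targets 2 fell, the deiodinase Dio1 at -0.93 ± 0.29 and malic enzyme Me1 at -0.79 ± 0.24. Of 7 Nr3c1 targets 1 rose and 1 fell, Sgk1 at 0.83 ± 0.30 and the metallothionein Mt2 at -3.24 ± 0.70, while Tat, Fkbp5, Tsc22d3, Zbtb16 and Per1 did not pass.

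**Figure D5:**
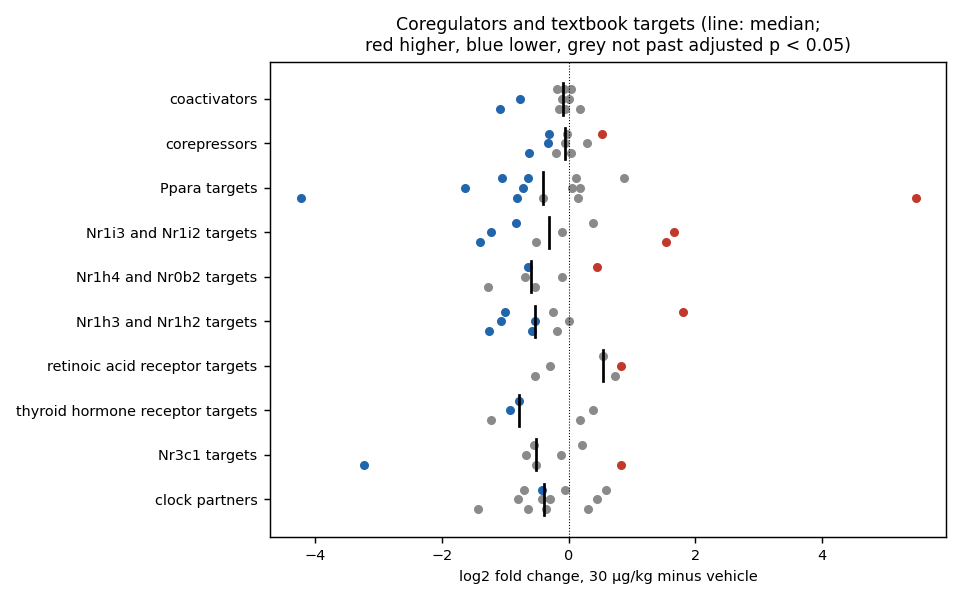
Log2 fold changes at 30 µg/kg against the vehicle of the genes of each coregulator, target and clock partner list, 1 point per gene, with a black line at the list median (red higher, blue lower, grey not past an adjusted p of 0.05). Coactivators and corepressors stay within about ±1.1, whereas the Ppara targets run from -4.23 to 5.48.

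Markers of the cell types of the liver were counted at 30 µg/kg, where 15.5% of all genes rose and 14.1% fell. Of 7 tested hepatocyte markers 6 fell (summed level 122000 to 158000 CPM in the vehicle mice and 109000 to 161000 CPM at 30 µg/kg), and albumin did not pass (log2 fold change -0.08 ± 0.11). Of 8 markers each, 5 leukocyte markers rose (summed 38 to 71.5 CPM against 55.7 to 153 CPM), 4 stellate and fibroblast markers rose (268 to 376 against 504 to 705 CPM), 6 endothelial markers rose (168 to 227 against 201 to 328 CPM), and 2 macrophage markers rose (153 to 236 against 131 to 395 CPM). The leukocyte gene Itgax and the collagen gene Col1a1 both had a log2 fold change of 2.41. No tested marker was at 0 in all mice. The 7 biliary markers did not pass (adjusted p from 0.171 to 0.598), with sums of 62.9 to 85.9 CPM in the vehicle mice and 65.2 to 82.6 CPM at 30 µg/kg. The part of these cell types in the receptor values was not tested.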

How the data were processed

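RNA from 45 livers was sequenced from Illumina TruSeq libraries, and the authors deposited raw read counts per Ensembl gene, 1 table per mouse. Per the submitters' processing notes and the methods, reads were aligned to GRCm38 with Bowtie and TopHat 1.4.1 and counted with HTSeq 0.6.1. Multiply aligned reads stay uncounted. Summary lines (no feature, ambiguous) were left out of library sizes: no-feature reads were 9.11 to 17.1% and ambiguous reads 1.34 to 2.07% of uniquely placed reads. Libraries held 11767284 to 56509899 reads on genes, which limits the precision of genes with few reads. No 2 libraries of a group agreed within sampling noise (chi-square per gene at least 13.7).

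Groups came from the dose labels, and mouse numbers follow the order of the samples and are only names. Separate mice were treated as replicates, so p-values measure the spread between mice. Genes with more than 4 reads in any sample were tested with the edgeR 4.0.16 quasi-likelihood test (R 4.3.3, TMM, 1 coefficient per group, 45 mice in 1 fit), adjusted by Benjamini-Hochberg within each dose over all genes tested and called at 0.05. The F test took the 8 dose terms together. In a simulated 30 µg/kg comparison in which 200 genes differed, the fit recovered 39.5% at 1.5-fold, 76% at 2-fold and 97.5% at 4-fold. The differing genes were far fewer than the 5167 called in the data, and the sparsest genes were not among them. With fewer differing genes the adjustment is stricter, so these rates do not give the recovery in the data. Alternatives were DESeq2 1.42.0, limma-voom (limma 3.58.1), other scalings and filters, fits of 2 groups, joint adjustment and each mouse left out. All 38 receptors are named; of the other lists, at most 4 genes that passed with a mean of at least 10 reads, by size of change, are named under that rule, and others that did not pass were chosen after their values were seen. Receptors and lists were chosen with earlier results of these data known. Symbols and exons came from GENCODE M21, starts and windows from RefSeq. Lengths are merged exons. 1 gene of the coregulator lists is not reported here. Tables and figures were made in Python 3.11.15.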

Additional observations from a re-analysis of the deposited data

Results flagged for a closer look

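In 25 of 342 groups of 5 mice (38 receptors in 9 groups, 7.31%) 1 mouse lay far from the other 4, by a gap of more than 0.71 of the group's whole range. For independent, normally distributed values chance alone gives about 1 in 20 groups. Here some groups have very few reads and the same mice recur across receptors, so the flagged share cannot be read as an excess over chance. Each value is given in CPM with the range of the other 4 mice, and no explanation was weighed.

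The hormone receptors held 10 of them. Esr1 was at 45.2 in vehicle mouse 1 (others 91.6 to 104). Nr3c1 was at 125 in mouse 2 of the 1 µg/kg group (132 to 135) and at 116 in mouse 1 of the 10 µg/kg group (103 to 106). Nr3c2 was at 25.7 in mouse 3 of the 1 µg/kg group (13.2 to 15.7). Thra was at 11.2 in mouse 3 at 0.03 µg/kg (4.88 to 5.65) and at 7.43 in mouse 1 at 10 µg/kg (4.85 to 5.39). Rara was at 7.33 in mouse 5 at 10 µg/kg (11.3 to 12.4) and at 12.8 in mouse 5 at 30 µg/kg (8.36 to 9.42). Vdr was at 0.0863 in mouse 2 at 0.3 µg/kg (all others 0) and at 0.385 in mouse 4 at 1 µg/kg (0.0281 to 0.0762).

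Among the lipid and xenobiotic sensors, Ppara was at 216 in mouse 4 at 0.01 µg/kg (123 to 139) and at 170 in mouse 2 at 30 µg/kg (107 to 117). Ppard reached 25.6 in mouse 1 at 0.3 µg/kg (3.87 to 7.15). Nr1i3 was at 577 in mouse 2 at 1 µg/kg (1010 to 1130) and at 912 in mouse 4 at 30 µg/kg (539 to 609). Among the clock-linked and hepatocyte receptors, Rora was at 106 in mouse 1 at 1 µg/kg (88.4 to 92.5), Hnf4g at 2.73 in mouse 3 at 0.01 µg/kg (0.842 to 1.07) and Nr0b2 at 36.6 in vehicle mouse 5 (9.79 to 17.1).

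Among the orphan receptors, Nr2f1 was at 1.57 in mouse 1 at 0.3 µg/kg (0.475 to 0.721). Esrra was at 46.1 in vehicle mouse 5 (34.3 to 37.1) and at 21.7 in mouse 2 at 1 µg/kg (32.7 to 34.0). Esrrg was at 12.4 in mouse 2 at 0.03 µg/kg (6.0 to 7.65) and Nr4a1 at 0.369 in mouse 2 at 10 µg/kg (0.609 to 0.702). Nr6a1 was at 13.5 in mouse 5 at 0.03 µg/kg (17.9 to 19.5) and at 17.7 in mouse 4 at 30 µg/kg (9.67 to 11.3).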

How the results depend on the processing

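No paired analysis was possible because the labels carry no replicate numbers shared between groups. The number of receptors that passed at 30 µg/kg was 14 and ranged from 9 (adjustment over all doses together) to 15 over 8 alternatives, and from 10 to 16 with 1 mouse left out. Receptors that fell at 30 µg/kg numbered 3 without normalization beyond total reads and 5 under adjustment over all doses together, against 9, and 5 to 10 with 1 mouse left out, the lowest without vehicle mouse 2. Without normalization 2 receptors passed at 3 µg/kg, against 4. In fits of the 2 groups alone 1 receptor, Nr2c1 at 1 µg/kg, passed at a dose up to 1 µg/kg, against 0. With 1 mouse left out, 5 to 9 receptors passed at 10 µg/kg (5 without vehicle mouse 2 or mouse 1 of the dosed group) and 1 to 5 at 3 µg/kg (1 or 2 without vehicle mouse 2 or 5 or mouse 3, 4 or 5 of the dosed group). The F test called 11 to 14 receptors over the alternatives and 11 to 15 with 1 mouse left out, and 30 against 10 µg/kg gave 0 throughout. Shares of all genes in these refits are not given here, and the causes were not tested.

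Of the 251 refitted values of the 14 receptors at 30 µg/kg, 206 kept direction and call, 45 lost the call and 0 reversed. In Nr3c1, Thrb, Rarg, Hnf4g, Nr2c1, Esrrg and Nr4a3 the call held in all refits that gave a value. Nr4a3 had a value in only 7 of the 8 alternatives, and the adjusted p of Nr2c1 reached 0.0499. Rara passed in 2 of 8 alternatives (adjusted p from 0.00966 to 0.446 over all of its refits). Vdr, Nr4a1, Nr4a2, Nr4a3 and Hnf4g had at most 52 reads in any mouse. In the simulation, which held far fewer differing genes than the data, 1.5-fold changes were mostly missed.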

Other observations

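Mouse 1 of the 0.3 µg/kg group lay outside the other 44 mice in some receptor and clock genes, a set of values looked at after the data were seen. Its Arntl (BMAL1) stood at 35.8 CPM against at most 21 CPM elsewhere, Npas2 at 12.1 against at most 4.48 CPM, Clock at 78.0 against at most 64.7 CPM and Nfil3 at 29.7 against at most 19.7 CPM. Per3 was at 10.7 CPM, where the other 44 mice had at least 13.3 CPM. Among the receptors, Nr1d2 (16.8 CPM), Ppara (80.1 CPM, others at least 88.3 CPM) and Nr2c1 (13.2 CPM, others at least 13.3 CPM) were the lowest of all 45 mice. Ppard (25.6 CPM, others at most 9.54 CPM) and Nr2f1 (1.57 CPM, others at most 1.43 CPM) were the highest. So, by a small margin, were Nr2f6 (67.0 CPM, others at most 66.8 CPM) and Thrb (58.1 CPM, others at most 58.1 CPM after rounding). Cry2, Per2, Tef, Hlf and Ciart lay inside the range of the other mice. The labels give no time of death, and the cause was not tested.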
